A study of Mus musculus with 17 samples.

Results

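The genes for the proteins of the cytoplasmic ribosome were examined for islands of histone H3.3 in newborn mouse lens. Members were the protein-coding genes on chromosomes 1 to 19 (GENCODE vM21, mm10) whose symbol is Rpl or Rps followed by a number and optional letters, or Rplp0, Rplp1, Rplp2 or Rpsa. Rps6k kinase genes, symbols ending in l and pseudogenes were left out, which left 73 of 20807 genes, 43 of the large and 30 of the small subunit. The rule did not use the ChIP-seq data. It passes over Rps3a1 because of the digit at its end, and over Fau, which carries a ribosomal protein under another name.

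H3.3 ChIP-seq was performed on lens epithelium and lens fibers, microdissected from CD1 mice, a wild-type outbred stock, without any treatment, with 2 libraries per compartment. The sample titles give day 1 after birth and the protocol day 0.5, and the labels give 150 lenses per sample while the study's methods name 200 lenses without saying how they were divided, so that each library is a pool of lenses from many animals. An island is a stretch of the genome that the authors' caller, SICER2, found richer in ChIP reads than a background. Whether that background came from the same library or from the input library of the series is not stated. The values are the position of each island and its uncorrected read count, and the total reads per library are not given, so that a gene without an island is only one where no island was called. The labels were checked against marker genes. The 9 fiber markers, among them Cryaa, Mip and Lim2, all had islands in both fiber libraries and 5 and 6 of them in the epithelium libraries. The 5 epithelium markers had islands at 4 and 5 genes in the epithelium libraries and also at 4 and 5 genes in the fiber libraries. Their median coverage of the gene window (gene body plus 1 kb on each side) was higher in fibers. It was 15.9% and 26.1% in the epithelium libraries and 65.4% and 74.5% in the fiber libraries. Gja1 did not follow, with 6.6% and 16.2% in epithelium and 0% and 13.2% in fibers. The islands alone therefore did not set epithelium apart. Of 8 markers of retina, pigment cells, vessels and blood, 2, 2, 3 and 3 had an island, with at most 12.2% of the gene window covered. The retinal regulator Crx, the pigment genes Tyr and Mlana, and the blood cell gene Ptprc had none in any library.

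H3.3 differs from the replication-coupled H3 proteins in that it is placed into nucleosomes throughout the cell cycle, at active promoters, along transcribed genes and at some silent repeats. Ribosomal protein genes are short housekeeping genes, transcribed at a high rate in nearly all cells, and their messenger RNAs begin with a C followed by a run of pyrimidines, the terminal oligopyrimidine (TOP) motif, through which growth signals control translation. Their introns often carry small nucleolar RNAs (snoRNAs), which guide the modification of ribosomal RNA. Lens epithelial cells divide and remain metabolically active, while fiber cells leave the cell cycle, make large amounts of crystallin and later lose their nuclei.

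The start regions of 6 members are shown as examples of the island patterns described below. They come from RefSeq (GRCm38.p6), whose promoter table held 53 of the 73 members by symbol. Each runs 5′ to 3′ from 70 bases before to 20 bases after the RefSeq start. Capitals mark a TOP run (a C within 5 bases of the start and the pyrimidines that follow it) and the letters CCGGAAG on either strand, the core of sites for ETS factors. Rps21 and Rpl7a lay wholly inside an island in all 4 libraries. Rps7 and Rpl26 had islands in fibers only. They are the 2 of the 8 matched members without an island in epithelium that carry CCGGAAG, and so are not typical of them in this. Rps27 had an island in every library, and its intronless copy Rps27rt had none.
Rps21 (chr2:180257309-180257398, plus strand): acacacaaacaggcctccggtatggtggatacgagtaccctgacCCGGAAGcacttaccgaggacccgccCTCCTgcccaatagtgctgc
Rpl7a (chr2:26910737-26910826, plus strand): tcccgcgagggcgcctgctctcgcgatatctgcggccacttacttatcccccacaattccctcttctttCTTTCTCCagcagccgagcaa
Rps7 (chr12:28635934-28636023, minus strand): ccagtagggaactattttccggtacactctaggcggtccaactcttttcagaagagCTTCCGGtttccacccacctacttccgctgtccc
Rpl26 (chr11:68901496-68901585, plus strand): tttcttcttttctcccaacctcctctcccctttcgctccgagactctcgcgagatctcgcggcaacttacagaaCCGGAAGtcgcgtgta
Rps27 (chr3:90213629-90213718, minus strand): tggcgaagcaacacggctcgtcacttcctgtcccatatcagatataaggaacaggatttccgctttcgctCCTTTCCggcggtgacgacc
Rps27rt (chr9:114982720-114982809, minus strand): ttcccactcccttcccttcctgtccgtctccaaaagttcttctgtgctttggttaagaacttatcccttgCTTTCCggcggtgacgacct
Among the members not matched were Rpl17, Rpl21, Rpl23a, Rpl29, Rpl3, Rpl30, Rpl32, Rpl36, Rpl7, Rpl8, Rplp1, Rps14, Rps20, Rps27a and Rps29.

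Ribosomal protein genes carried H3.3 islands almost without exception in fibers and in the greater part in epithelium. An island was counted for a gene when it overlapped the gene body or the 1 kb on either side. Epithelium replicates 1 and 2 had islands at 52 and 57 members (71.2% and 78.1%), where 28.6% and 33.5% of all protein-coding genes had one. Fiber replicates 1 and 2 had islands at 71 and 72 members (97.3% and 98.6%), where 54.5% and 60.5% of all genes had one. The means were 54.5 ± 3.54 members in epithelium and 71.5 ± 0.707 in fibers (SD, n = 2 libraries each), and both fiber libraries lay above both epithelium libraries. The difference of 17 members gave p = 0.33 in an exact two-sided permutation test, the smallest that 2 against 2 libraries allow. Genes are not replicates, and the shares over members are descriptions.

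The size of the difference between compartments depended on which islands were kept. The fiber lists held 27059 and 35940 islands and the epithelium lists 10389 and 14434, and all genes moved in the same direction as the members. When only the 10389 densest islands of each library were kept, 52, 54, 59 and 54 members had an island in epithelium 1, epithelium 2, fiber 1 and fiber 2. The groups then overlapped, and the difference was 3.5 members (exact permutation test, two-sided, p = 0.67). The 10389 islands with the most reads gave 52, 52, 66 and 69 members, and the difference was 15.5 (p = 0.33 in the same exact test). In every library the share of members stayed above that of all genes under both choices. Of all genes, 28.6%, 27.7%, 33.8% and 33.0% had one of the densest islands, and 28.6%, 27.7%, 33.8% and 32.8% one of those with the most reads.

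Across the 4 libraries, 46 members (63.0%) had an island in each, against 21.5% of all genes. The same 46 were the members with islands in both epithelium libraries (22.4% of all genes), and 71 members had islands in both fiber libraries (51.7%). Another 16 members (21.9%) had islands in both fiber libraries and in 1 epithelium library, against 13.8%. Islands in both fiber libraries and in neither epithelium library were found at 9 members (12.3%, against 16.4% of all genes). This count was 15 without epithelium replicate 1 and 19 without epithelium replicate 2, where the rule is looser and the count could only stay or rise. With the gene start window described below its share lay above that of all genes. These 9 were Rpl5, which binds 5S ribosomal RNA, Rpl9, Rpl26, Rpl30, Rpl35a, Rps7, Rps13, Rps20 and Rps23, which lies at the decoding center. No member had an island in epithelium without one in fibers, a pattern of 1.71% of all genes. Rps27a, which encodes ubiquitin fused to a small subunit protein, was split by replicate number and not by compartment. Its window was covered by 82.3% in epithelium 2 and 92.8% in fiber 2, and it had no island in epithelium 1 or fiber 1.

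**Figure D1:**
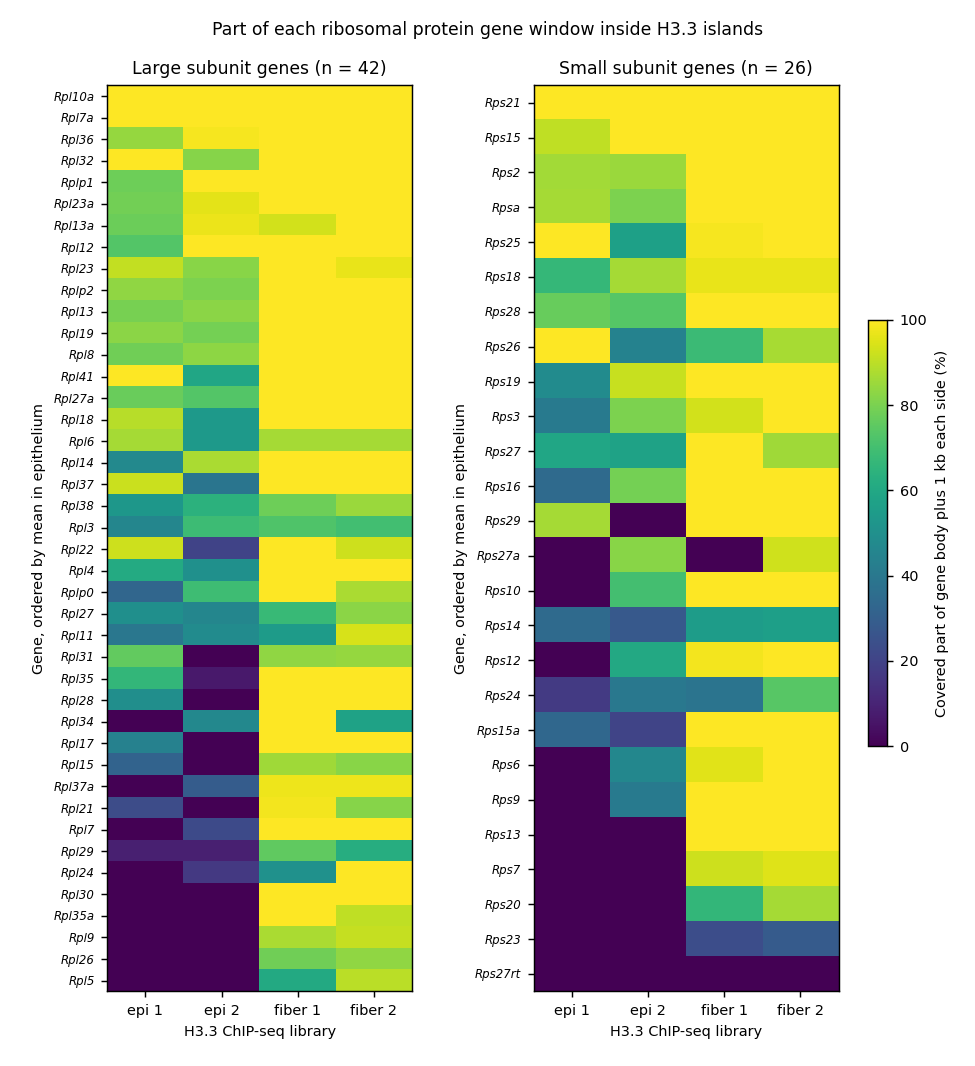
Part of each member's window (gene body plus 1 kb on each side) that lay inside H3.3 islands, in percent, for 42 large and 26 small subunit genes (rows) in the 4 libraries (columns). The fiber columns are near 100% for most genes, the epithelium columns run from 100% at Rpl10a, Rpl7a and Rps21 to 0%, and Rps27rt is at 0% throughout.

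Islands in fibers enclosed most ribosomal protein genes from end to end, while those in epithelium covered a part of the median gene. The median member had 49.7% and 56.7% of its window covered in epithelium 1 and 2 and 100% in fiber 1 and 2. The mean over members was 49.3% and 50.8% in epithelium and 88.9% and 91.9% in fibers, whereas the mean over all genes was 8.61%, 9.05%, 23.6% and 23.6%. The body lay wholly inside islands at 19 and 21 members in epithelium (against 1.83% and 1.67% of all genes) and at 58 and 60 in fibers (against 6.82% and 5.93%). The covered length was larger in both fiber libraries than in both epithelium libraries at 56 members (76.7%, against 42.5% of all genes) and smaller at none (against 0.769%). The whole window was covered in both fiber libraries at 36 members (49.3%, against 2.78%) and in both epithelium libraries at 4 (5.48%, against 0.293%). The same 4 were wholly covered in all 4 libraries, as were 0.24% of all genes. Members are short, with a median length of 3289 bp against 17629 bp for all genes, so that shares of a window are not like for like.

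A window of fixed size, 1 kb on each side of the gene start, removed this difference in length. It held an island at 40 and 45 members in epithelium (54.8% and 61.6%, against 15.7% and 19.4% of all genes). In fibers it held one at 67 and 70 members (91.8% and 95.9%, against 41% and 47.4%). It was wholly covered in both fiber libraries at 38 members (52.1%, against 19.5%) and in both epithelium libraries at 9 (12.3%, against 2.36%). By this window, 17 members had islands in both fiber libraries and neither epithelium library (23.3%, against 16.5%), so that the count confined to fibers depended on the window.

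**Figure D2:**
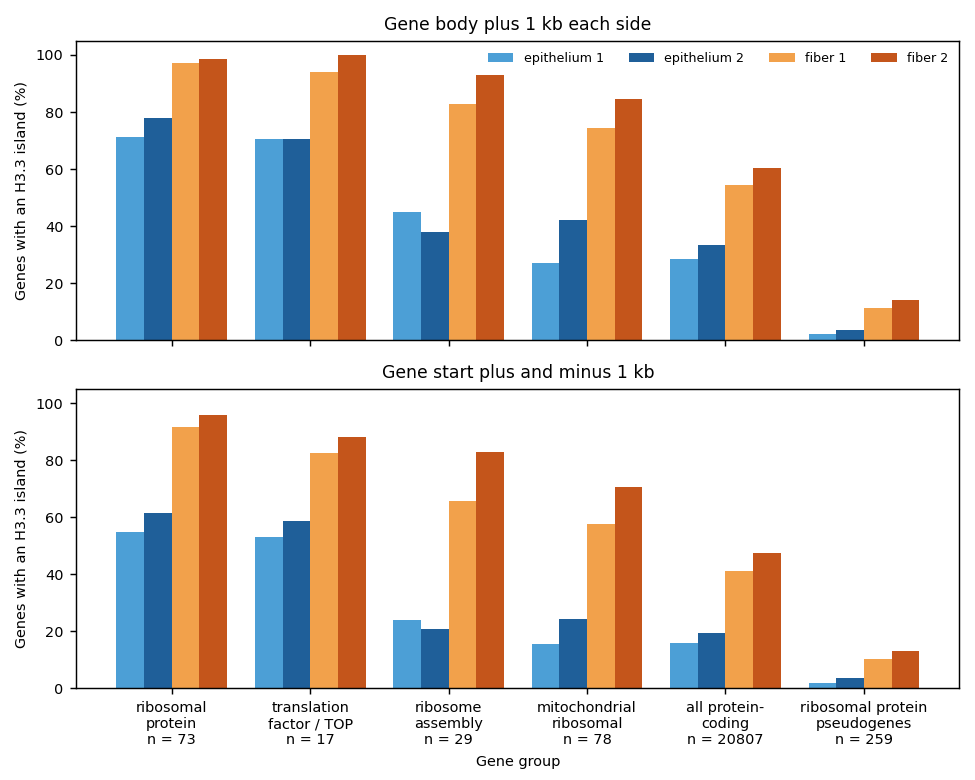
Share of genes with an H3.3 island (%) in each of the 4 libraries (bars), by the gene body window (top) and by the gene start window (bottom), for 6 gene groups. All protein-coding genes include the members. Ribosomal protein genes stand at 71.2% to 98.6% in the top panel, close to the translation factor genes, and their pseudogenes at 2.32% to 14.3%.

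Coverage rose at the gene start and did not fall again until after the gene end. At 1 kb before the start, 27.4% and 21.9% of members were inside an island in epithelium 1 and 2, and 63.0% in each fiber library. At the start itself the values were 46.6%, 50.7%, 89.0% and 91.8%, and 500 bp into the gene they were 52.1%, 58.9%, 91.8% and 95.9%. At 1 kb past the annotated end, 52.1% and 56.2% of members were still covered in epithelium and 94.5% and 97.3% in fibers, and at 5 kb past the end 21.9% and 16.4%, and 57.5% and 54.8%. All genes differed in shape, with 13.1%, 15.3%, 38.3% and 43.6% at the start and 9.90%, 9.93%, 24.9% and 24.5% at the end. The median length was 3289 bp for members and 17629 bp for all genes, so that an island at the start passes the end of a member more readily. The shapes are therefore not like for like, and genes of matched length are not compared here. Where a single island held the whole gene body, it reached further downstream than upstream at the median in every library. The reach beyond the gene end was 3531, 2104, 5242 and 5363 bp, and the reach ahead of the start was 1458, 1091, 2324.5 and 1776 bp. In length, member islands had medians of 4500 and 3800 bp in epithelium and 10400 and 10600 bp in fibers, against 3800, 3000, 5200 and 4000 bp over all islands of these libraries. The start of another gene lay inside 32.8%, 26.4%, 45.5% and 46.2% of them, so that a part of their length belongs to neighbors. The same share over all islands is not given here, so that this is not shown to be particular to the members. At 20 members another gene start lay inside the window itself.

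**Figure D3:**
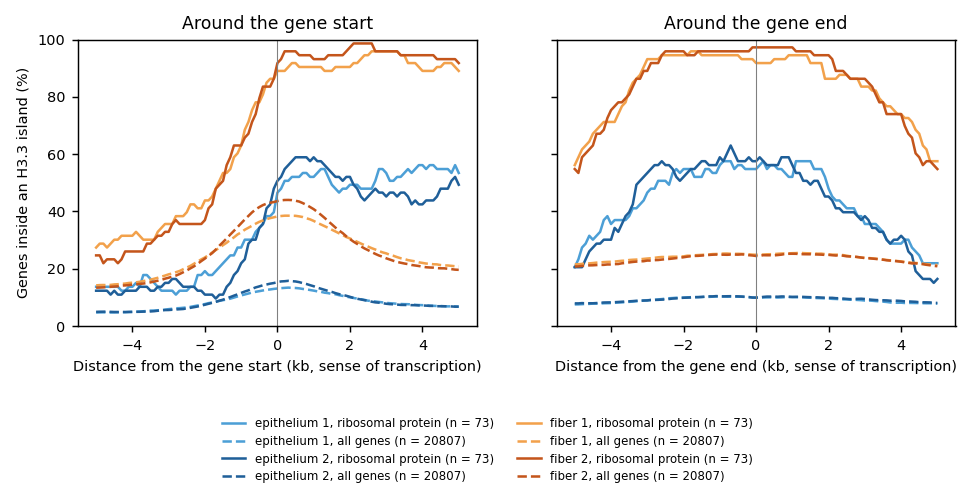
Share of genes inside an H3.3 island (%) at each distance from the gene start (left) and the gene end (right), in kb, for the 73 members (solid lines) and all 20807 protein-coding genes (dashed lines) in the 4 libraries. The members rise sharply over the last 1 kb before the start and keep their level past the end, whereas all genes peak at the start. Members are shorter at the median (3289 bp against 17629 bp), so that the shapes are not like for like.

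The uncorrected density of reads within islands was close between compartments, and their order depended on the scale. Density is the read count of the islands that overlap a gene divided by their length, and it is not corrected for depth. Over members with an island, the median was 30.8 and 31.0 reads per kb in epithelium 1 and 2, and 32.4 and 33.0 in fiber 1 and 2, against 28.5, 28.3, 27.9 and 28.2 over all genes with an island. At the 46 members with islands in every library, the median ratio of the fiber mean to the epithelium mean was 1.09, and single genes ranged from 0.879 to 1.36. The ratio was above 1 at 37 of the 46 members (80.4%), and at 59.2% of the 4482 such genes in all. Both fiber libraries were denser than both epithelium libraries at 26 members (56.5%, against 31.3% of all genes), and less dense at 3 (6.52%, against 15.3%). Division by the total of reads in islands, which was 1331369 and 1430373 in epithelium and 5041885 and 5359085 in fibers, turned the order of the medians around. Epithelium was then at 73.8 and fibers at 20.7 reads per kb on that scale, and which compartment is denser therefore cannot be told from these lists.

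**Figure D4:**
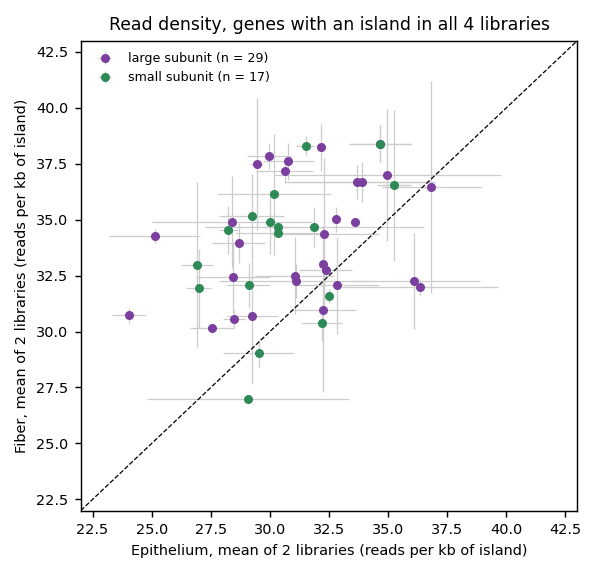
Uncorrected reads per kb of island in fibers against epithelium for the 46 members with an island in all 4 libraries. Points are means of 2 libraries, bars span the 2 libraries, and the dashed line marks equal values. Of these genes, 37 lie above the line, and the bars of many cross it.

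Within fibers, members without an island in epithelium had less dense islands than the others at the median. The 46 members with islands in all libraries had a median fiber density of 34.4 reads per kb, with a range of 27 to 38.4. The 16 members with an island in 1 epithelium library had a median of 30.2 (27.3 to 36.4), and the 9 members with none had a median of 26.6 (22.3 to 34.3). The ranges overlap. Fiber 1 alone gave medians of 33.4, 30.9 and 28, and fiber 2 alone gave 34.4, 30.6 and 26.0, so that the order was the same in each replicate. All genes were not sorted in this way, so that the order is not shown to be particular to the members.

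Among the 5 members with the densest fiber islands by uncorrected density were Rpl13a, Rps15, Rpl7a and Rpl19. Rpl13a (chr7:45125558-45128761), a protein of the large subunit also known as a translational repressor of inflammatory mRNAs, had densities of 36.0, 33.3, 39.2 and 37.6 reads per kb in epithelium 1, epithelium 2, fiber 1 and fiber 2. Its island also held the start of another gene in every library. Rps15, close to the decoding center, had densities of 31.1, 31.9, 37.9 and 38.7, and its island also held the start of Apc2 in every library. Rpl7a (chr2:26910764-26913318), the host of 3 snoRNA genes, had 32.2, 32.1, 39.3 and 37.2, and its islands also held the starts of Med22, Surf1 and Surf2 in every library. Rpl19 had 30.9, 29.0, 38.4 and 37.3, and an island of it held the start of Cacnb1 in every library. These densities are taken over whole islands, so that they include the neighbors.

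Among members with islands in both fiber libraries, the 5 with the least dense ones were Rps23, Rpl30, Rps20, Rpl26 and Rps13, all of which lacked an island in epithelium. Rps23 (chr13:90922958-90924950) was the lowest, with 22.3 and 22.4 reads per kb. Its island did not reach the promoter, as it began 2043 and 1843 bp after the gene start in fiber 1 and 2, next to the gene end, and covered 23.8% and 28.8% of the window. Rpl30 had 25.5 and 25.7 reads per kb and was covered along its whole window. Rps20 had 26.2 and 26.0, with 66.3% and 86.3% of the window covered. Rpl26, also known for binding the mRNA of p53, had 28 and 24.5, with 78.2% and 83.6% covered by 2 islands in each library. Rps13 had 27.8 and 25.5, with the whole window covered.

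Among the 5 largest differences in coverage between compartments were those of Rps13, Rpl30, Rpl35a and Rps7. Rps13 (chr7:116331505-116334195) and Rpl30 (chr15:34440505-34443640) were at 0% in both epithelium libraries and at 100% in both fiber libraries. Rpl35a was at 0% in epithelium and at 100% and 90.4% in fibers. Its window also held the start of Iqcg, and its islands in both fiber libraries held the starts of Iqcg and Lmln. Rps7 (chr12:28630854-28635953), which also binds the p53 regulator Mdm2, was at 0% in epithelium and at 92.2% and 95.0% in fibers.

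No difference in coverage was seen at Rpl10a, Rpl7a and Rps21, which were at 100% in all libraries and so at the top of the scale. Rpl10a (chr17:28328471-28331033), which forms the stalk at the exit site of the ribosome, lay in islands of 7400, 11000, 11800 and 31000 bp with 38.9, 34.7, 41.2 and 31.7 reads per kb. Its densities overlapped between compartments. Rps21 (chr2:180257377-180258445) lay in islands of 10200, 11200, 27000 and 13800 bp with 30.6, 27.9, 33.3 and 37.0 reads per kb. The long islands of Rpl10a in fiber 2 and of Rps21 in fiber 1 were each found in 1 replicate only, and each held the start of 1 other gene, Tead3 and Cables2.

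Rps27rt (chr9:114982366-114982739), a gene of 374 bp with a single exon, was the only member without an island in any library, a state of 35% of all genes. The closest islands ended 2966 bp away in epithelium 2 and 1966 bp away in fiber 1, and in epithelium 1 and fiber 2 they were 198766 and 46766 bp away. From its start onward, 38 bases were identical to those of Rps27, counted from the second base of the RefSeq start of the latter. Before the start, 53 of 250 bases (21.2%) matched without gaps, so that the copies share the TOP run printed above and not the sequence ahead of it. Rps27 (chr3:90212522-90213651) itself was covered by 59.1%, 57.5%, 100% and 85.6%, and its islands also held the start of Rab13. Reads of 75 nt cannot be placed with certainty where a stretch of that length occurs more than once in the genome, and such stretches made up 12.2% of the Rps27rt window, 3.08% of the Rps27 window and a median of 3.57% over members (0% to 14.3%, highest at Rps6). Their part in the result was not tested. Processed pseudogenes of ribosomal protein genes, 259 in number and chosen for comparison after seeing the data, had islands in 6, 9, 29 and 37 cases (2.32%, 3.47%, 11.2% and 14.3%). Repeated stretches took up a median of 5.68% of their windows (0% to 100%).

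**Figure D5:**
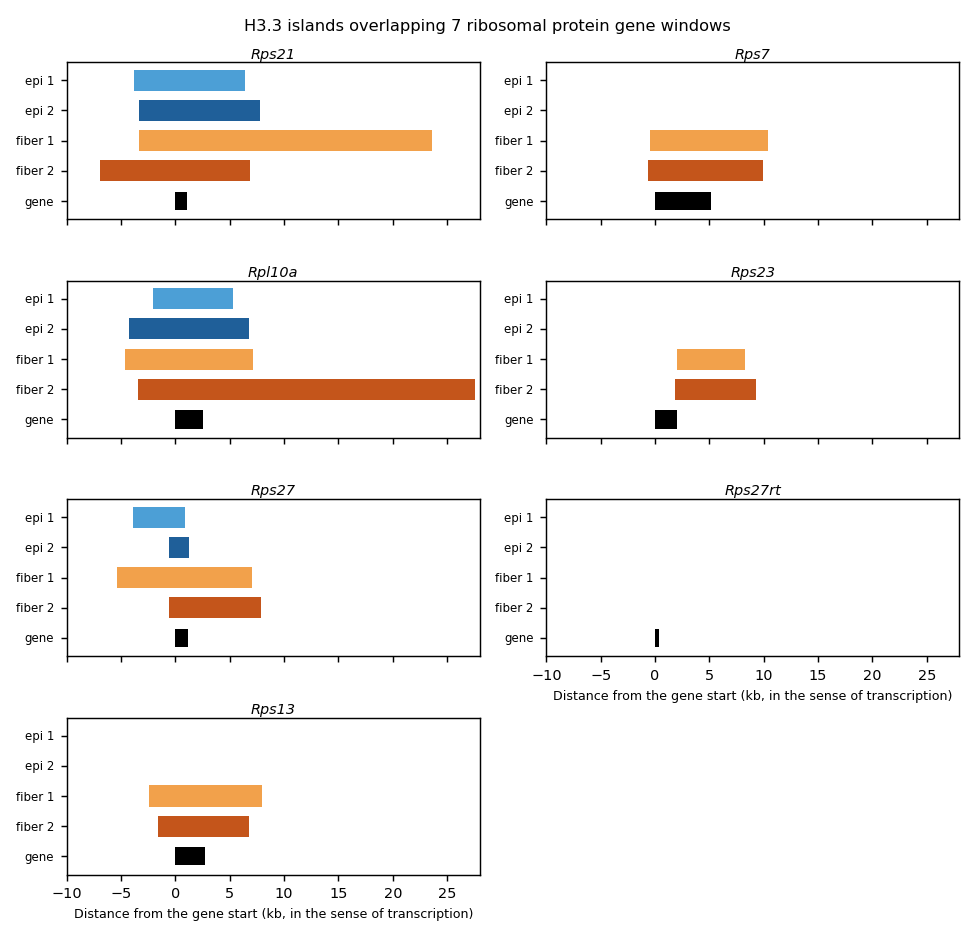
H3.3 islands (colored bars, 1 row for each library) that overlap the windows of 7 members, by distance from the gene start in kb, with the gene in black. Rps21 and Rpl10a lie inside an island in every library, Rps13 and Rps7 in fibers only, the islands at Rps23 begin next to the gene end, and Rps27rt has none.

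The genes of the ribosomal stalk, which recruits the elongation factors, had islands in all libraries. Rplp0, the base of the stalk, was covered by 32.9% and 69.1% in epithelium and 100% and 87.2% in fibers. Rplp1 was covered by 78.0% and 100% in epithelium and wholly in both fiber libraries. Rplp2 was covered by 83.4% and 80.2% in epithelium and wholly in fibers. Rpsa, a small subunit protein also known as the laminin receptor, was covered by 86.3% and 80.4% in epithelium and wholly in fibers. For Rplp0, Rplp2 and Rpsa every fiber value was above both epithelium values, while Rplp1 was at 100% in 1 epithelium library as well. Their densities lay between 26.6 and 38.8 reads per kb, and for Rplp0 and Rplp1 they overlapped between compartments. In every library except epithelium 2, an island of Rplp0 held the start of Gcn1l1 and an island of Rplp2 that of Pnpla2.

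The subunits did not separate in fibers, where all 43 large subunit genes and 28 and 29 of the 30 small subunit genes had an island. In epithelium, 34 and 33 large subunit genes (79.1% and 76.7%) and 18 and 24 small subunit genes (60.0% and 80.0%) had one, so that the order of the subunits changed between replicates. The median coverage in epithelium was 65.6% and 53.9% for the large and 34.5% and 59% for the small subunit, again with a change of order. Replicates differed by less than 10 points of coverage at 60 members in fibers and at 29 in epithelium. The 27 members that host snoRNA genes (55 in all) had a median coverage of 73.3% and 78.9% in epithelium, above the 47.8% and 46.1% of the 46 members without one, and all 27 had islands in both fiber libraries. In epithelium 21 of the 27 had an island in each library, and 31 and 36 of the 46.

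Genes that work beside the ribosomal proteins were set next to them. The 17 genes of translation factors and other TOP mRNAs, which include Fau, were closest to the members. They had islands at 12, 12, 16 and 17 genes with a median coverage of 39.9%, 37.4%, 95.0% and 88.1%. Eef2, the elongation factor that moves the ribosome along the mRNA, was covered wholly in all libraries at 41.0, 42.4, 36.9 and 44.7 reads per kb. Eif3e, a subunit of an initiation factor, had an island in fiber 2 only. Of 29 genes for ribosome assembly, 13, 11, 24 and 27 had an island, with a median coverage of 0% in epithelium and 44.6% and 41.1% in fibers. The 78 genes for mitochondrial ribosomal proteins had islands at 21, 33, 58 and 66 genes (26.9%, 42.3%, 74.4% and 84.6%), below the share of all genes in epithelium 1 and above it in the other libraries. Their median coverage was 0% in epithelium and 29.7% and 35.7% in fibers. These lists differ from the members in gene length, and no test was made between them.

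The promoters of the members were searched in the 250 bases before to 50 bases after the RefSeq start. Fixed letters such as CCGGAAG were read on both strands of this stretch. TOP runs were read on the sense strand only, at the start or within 5 bases of it. The ETS letters CCGGAAG were found in 21 of 53 members (39.6%) and in 12.6% of 15686 promoters. The letters AANATGGC, a core of sites for YY1, were in 9 members (17.0%, against 6.70%), TATAAA in 3 (5.66%, against 12.9%) and GGGCGG, the GC box, in 30 (56.6%, against 48.8%). A TOP run exactly at the start was present in 13 members (24.5%, against 2.19%) and within 5 bases of it in 26 (49.1%, against 19.1%). The GENCODE and RefSeq starts lay within 100 bp of each other at 39 of the 53 members. By islands in epithelium, CCGGAAG was found in 15 of 35 members with islands in both libraries (42.9%), in 4 of 10 with an island in 1 (40%) and in 2 of 8 with none (25.0%), Rps27rt among them. TOP runs within 5 bases were found in 17 of the 35 (48.6%), in 7 of the 10 (70%) and in 2 of the 8 (25.0%). These are letter matches and not bound sites.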

How the data were processed

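H3.3 ChIP-seq islands of 4 libraries were used, 2 of lens epithelium and 2 of lens fibers. The sequencing was single-end, with 75 nt per read. Per the study's methods, BWA (aln, then samse, with its defaults) placed the reads and the authors called peaks with SICER2. The deposited lists are 1 for each library. Per the file headers and labels, the build was mm10 and the caller's window was 200 bp, its gap 600 bp and its false discovery rate 0.01. The deposited lists hold the raw count of reads in each island, which the authors did not normalize. Versions, the treatment of duplicates and whether the input served as a control are not given in the sources used here. Total reads per library are not known, so that no depth, interval or floor was computed, and the number of libraries limits the precision.

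From these lists, islands were joined to GENCODE vM21 gene bodies extended by 1 kb, with an overlap of at least 1 bp. For each gene and library the islands, the covered length and the reads per kb of the overlapping islands were computed, taking whole islands. Groups came from the sample labels, and libraries were compared by an exact two-sided permutation test of 2 against 2 libraries. A correlation of -0.0032 between the deviations of same-numbered replicates over all genes did not pair the libraries. Stretches of 75 nt found more than once on the assembled chromosomes of GRCm38 were counted on both strands. The overlap step was tested on simulated data, where it matched a direct count.

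The genes, gene lists and tests were chosen with earlier results of these data known. Genes were named by a rule: the stalk proteins and Rpsa, members without an island, the 5 members with the highest and the 5 with the lowest density in fibers, the 5 with the largest and the 5 with the smallest difference in coverage, and members sharing an island. Rps27, Rps27a, Eef2, Eif3e and the other genes listed by pattern were named after their values were seen. Python 3.11.15 with numpy 2.4.6, pandas 2.3.3, numba 0.67.0 and matplotlib 3.10.9 was used. The alternatives were other windows, denser islands, equal numbers of islands per library, coverage of at least 50%, members without another gene start, scaling by reads in islands, leaving out each library, and, chosen after seeing the data, pseudogenes and members up to 10 kb long. Bisulfite data and the input library were not used here, and the values of some single genes are not reported here.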

Additional observations from a re-analysis of the deposited data

How the results depend on the processing

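At the mean over libraries, fibers kept more members with an island than epithelium under every alternative run. The mean number of members with an island, 54.5 in epithelium and 71.5 in fibers, ranged from 52 to 57 and from 71 to 72 when a library was left out, and the difference of 17 members kept its sign. The paired comparison by replicate number gave the same difference of 17 members (replicate block, exact permutation test, p = 0.50, the smallest it allows). The difference fell to 3.5 with the densest 10389 islands of each library, where epithelium 2 and fiber 2 were both at 54 members and the groups overlapped. The number of members with islands confined to fibers changed with the rule. It was 9 (against 16.4% of all genes), and 15 without epithelium replicate 1 and 19 without epithelium replicate 2, with a range of 9 to 19 over the libraries left out. Leaving out an epithelium library loosens the rule, so that the count could only stay or rise. It was 17 with the gene start window (against 16.5% of all genes), 2 with the densest islands and 24 when at least 50% of the window had to be covered. The share of all genes is not given for the other alternatives, so that these counts describe the members only.

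The median coverage in epithelium, 53.2%, became 61.1% with the gene body alone, 35.7% with 5 kb on each side, 47.3% at the gene start, 35.1% with islands at or above the median density of their library, and 58.3% without the 4 members over 10 kb (chosen after seeing the data). In fibers, the median of 100% became 71.7% with 5 kb and 98.1% with the densest islands, and the mean over members was 90.4%.

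The median density in epithelium, 30.9 reads per kb, became 30.6 with the gene body alone and with the islands of most reads, 32 with islands at or above the median density, 31.1 with the densest islands and 30.3 without members that hold another gene start. In fibers, 32.7 reads per kb became 33.5, 33.9 and 31.7 with islands at or above the median density, with the densest islands and without another gene start. Divided by the total of reads in islands, the values were 73.8 and 20.7, a reversed order of the compartments. No member had more than 50% repeated stretches. With the depth unknown, a gene that lacked H3.3 and a gene with too few reads cannot be told apart.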
